A study of Mus musculus with 12 samples.

Results

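Interferon signalling and antiviral genes were followed in the seminal vesicle, an accessory gland of the male tract, of mice exposed to a synthetic estrogen just after birth. The genes were the signalling and transcription factors Stat2, Irf9, Irf1 and Irf7 and the antiviral effectors Isg15, Ifit1, Ifit3, Oas2 and Mx1. A gene was read from an Affymetrix probe set only where the platform annotation gave that set this 1 symbol. All 9 genes were found, of 30063 genes named on the array, and 8 of them were among the 20102 genes bright enough to be tested. Isg15 exceeded its array's median on 1 of 12 arrays, where 3 were required, and is described by its values.

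Total RNA came from glands of male C57BL/6 mice collected at week 10. Pups were injected under the skin on days 1 to 5 with diethylstilbestrol (DES), a synthetic estrogen, at 2 µg per pup per day in corn oil, or with corn oil alone (vehicle). They were wild type (WT) or aERKO, mice without a working estrogen receptor alpha, the receptor that Esr1 encodes. There were 4 groups of 3 arrays, named WT_vehicle and WT_DES for the wild type and aERKO_vehicle and aERKO_DES for the knockout. The comparisons ask how the adult gland differs after neonatal DES and whether that depends on this receptor. The labels do not say how the receptor was disrupted, or whether a sample was 1 animal or a pool.

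Interferons are secreted alarm proteins of antiviral defence. Type I interferons bind the IFNAR1 and IFNAR2 receptor chains, whose kinases JAK1 and TYK2 activate STAT2; with IRF9 it works in a complex that binds the interferon-stimulated response element (ISRE) in promoters of antiviral genes. Interferon gamma, made mainly by T and NK cells, acts through IFNGR1 and IFNGR2, JAK1 and JAK2 on promoters with the gamma-activated site (GAS), and IRF1 is a well known target of that branch.

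Promoter sequence was looked at first, because it shows which of these genes carry the letters of either element next to their start. RefSeq promoters of assembly GRCm38.p6, each running from 250 bases before to 50 bases after a transcription start, were given for 7 of the 9 genes, as 9 promoters. Oas2 and Mx1 had no entry. The ISRE was searched on both strands as GAAA, any 2 bases and GAAA. The GAS was searched as TTCNNNGAA, which reads the same on both strands, and in a form with 1 more free base. The stretches below are shown because they hold these matches. They are written 5′ to 3′ on the strand of the gene, and capitals mark the ISRE letters in Stat2, Isg15, Ifit1 and Ifit3 and the TTCNNNGAA letters in Irf1.
Stat2: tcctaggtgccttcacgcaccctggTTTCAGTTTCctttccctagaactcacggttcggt
Irf1: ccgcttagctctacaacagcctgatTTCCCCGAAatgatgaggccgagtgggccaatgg
Isg15: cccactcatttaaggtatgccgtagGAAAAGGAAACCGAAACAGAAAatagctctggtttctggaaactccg
Ifit1: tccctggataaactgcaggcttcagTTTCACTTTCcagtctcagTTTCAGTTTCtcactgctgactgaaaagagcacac
Ifit3: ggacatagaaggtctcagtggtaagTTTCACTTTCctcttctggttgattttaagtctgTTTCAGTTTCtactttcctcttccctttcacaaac

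The Stat2 stretch lies at chr10:128270251-128270310 on the plus strand and holds 1 ISRE match, on the opposite strand. The Irf1 stretch, chr11:53769899-53769957 on the plus strand, holds the TTCNNNGAA match at -90 to -82 from the start. In the Isg15 stretch, chr4:156200850-156200921 on the minus strand, 3 ISRE matches overlap between -78 and -57 from the start. Ifit1, at chr19:34640760-34640838, and Ifit3, at chr19:34583348-34583441, both on the plus strand, have 2 matches each, all on the opposite strand, the farthest beginning at -156 (Ifit3) and the nearest ending at -76 (Ifit1).

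ISRE letters were thus in the promoters of 4 of the 7 genes, or 4 of 9 promoters (44.4%), against 3.44% of all 32851 promoters in the table and 32.5% of 114 promoters of a wider set of interferon genes described below. The TTCNNNGAA letters were in 1 of the 9 promoters (11.1%), against 8.3% of all promoters and 21.9% of the wider set. The longer GAS form was in Stat2, next to its ISRE match without overlap, and in 1 promoter of Irf9. The Irf9 match lies after the start, at bases 2 to 11. This form was in 22.2% of the 9, against 6.95% of all promoters and 7.02% of the wider set. None of these letters was in the Irf7 promoter. A match describes the letters and is not a measured binding site.

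**Figure D1:**
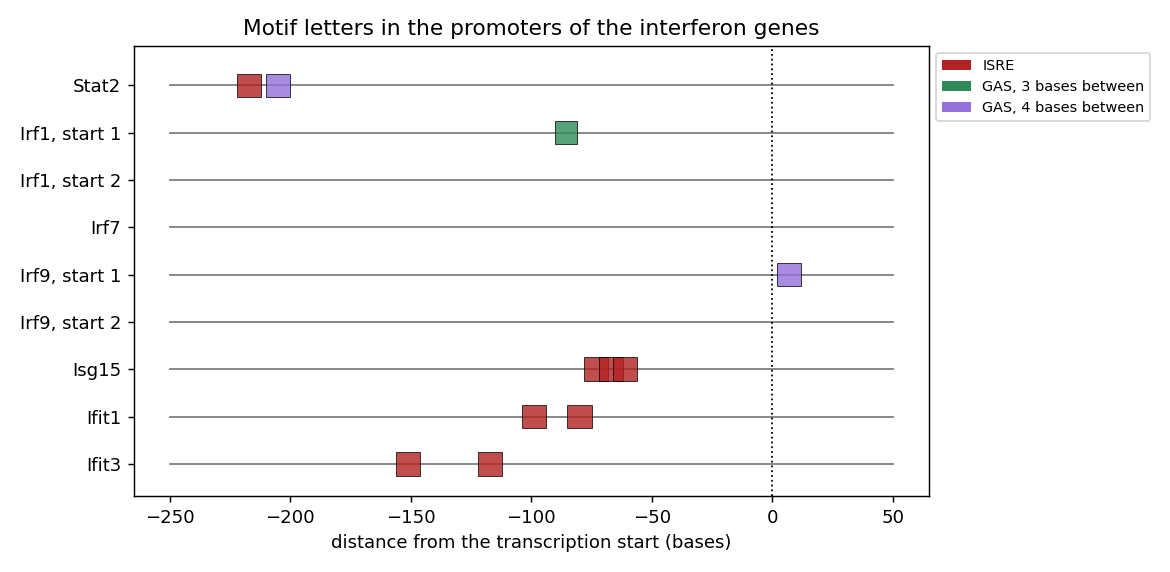
Matches of the ISRE and GAS letters (coloured boxes) in the 9 RefSeq promoters of 7 interferon genes, by distance in bases from the transcription start (dotted line). Isg15 shows 3 overlapping ISRE matches, Ifit1 and Ifit3 show 2 each, and Irf7 shows none.

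All values below are the deposited log2 expression levels after the RMA procedure, in which a difference of 1 is a 2-fold difference; a level is compared only with levels of the same gene. Array medians over all probe sets ran from 5.95 to 6.14, and arrays of a group correlated with one another at 0.982 to 0.996 across genes. The group means of 10 secretory genes of the gland were 12.23 to 14.15. The targeted gene Esr1 was at 7.75 ± 0.0795 (SD, n = 3) in WT_vehicle and 6.99 ± 0.106 in aERKO_vehicle, a difference of -0.76 ± 0.08 (SE). After DES, WT had 4152 genes called higher and 4677 lower. That split moved to 3404 and 7115 when arrays were shifted to a common median, 3304 and 6548 for a common 75th percentile, 3707 and 5653 after quantile normalization, and 8345 and 350 when they were shifted to 4 hybridization controls. The last shift raised the median WT difference of all genes from -0.05 to 0.31. It put Stat2 at 0.93, Irf9 at 0.81 and Mx1 at 0.68 in place of the 0.57, 0.45 and 0.32 given below. The mean of 23 background controls was 0.43 lower and that of the hybridization controls 0.36 lower in WT_DES than in WT_vehicle, and the part of these shifts in the results was not tested.

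In WT glands neonatal DES was followed at week 10 by higher levels of every tested gene of the set. The 8 tested genes rose by 1.25-fold (Mx1) to 3.01-fold (Ifit1), and all 8 were called at an adjusted p of 0.05 (limma, Benjamini-Hochberg over all genes tested), against 20.7% of all genes called higher. Their median log2 difference was 0.95, against -0.05 over all genes. The WT_DES arrays were all above the WT_vehicle arrays for each of the 8. This also held for 25.8% of all genes, and for 35.1% of all genes the WT_DES arrays were all below. For each of the 8, all 3 WT_DES arrays were above the other 9 arrays, as for 20.7% of all genes. In aERKO glands none of the 8 was called, and no gene of the array was (0%).

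**Figure D2:**
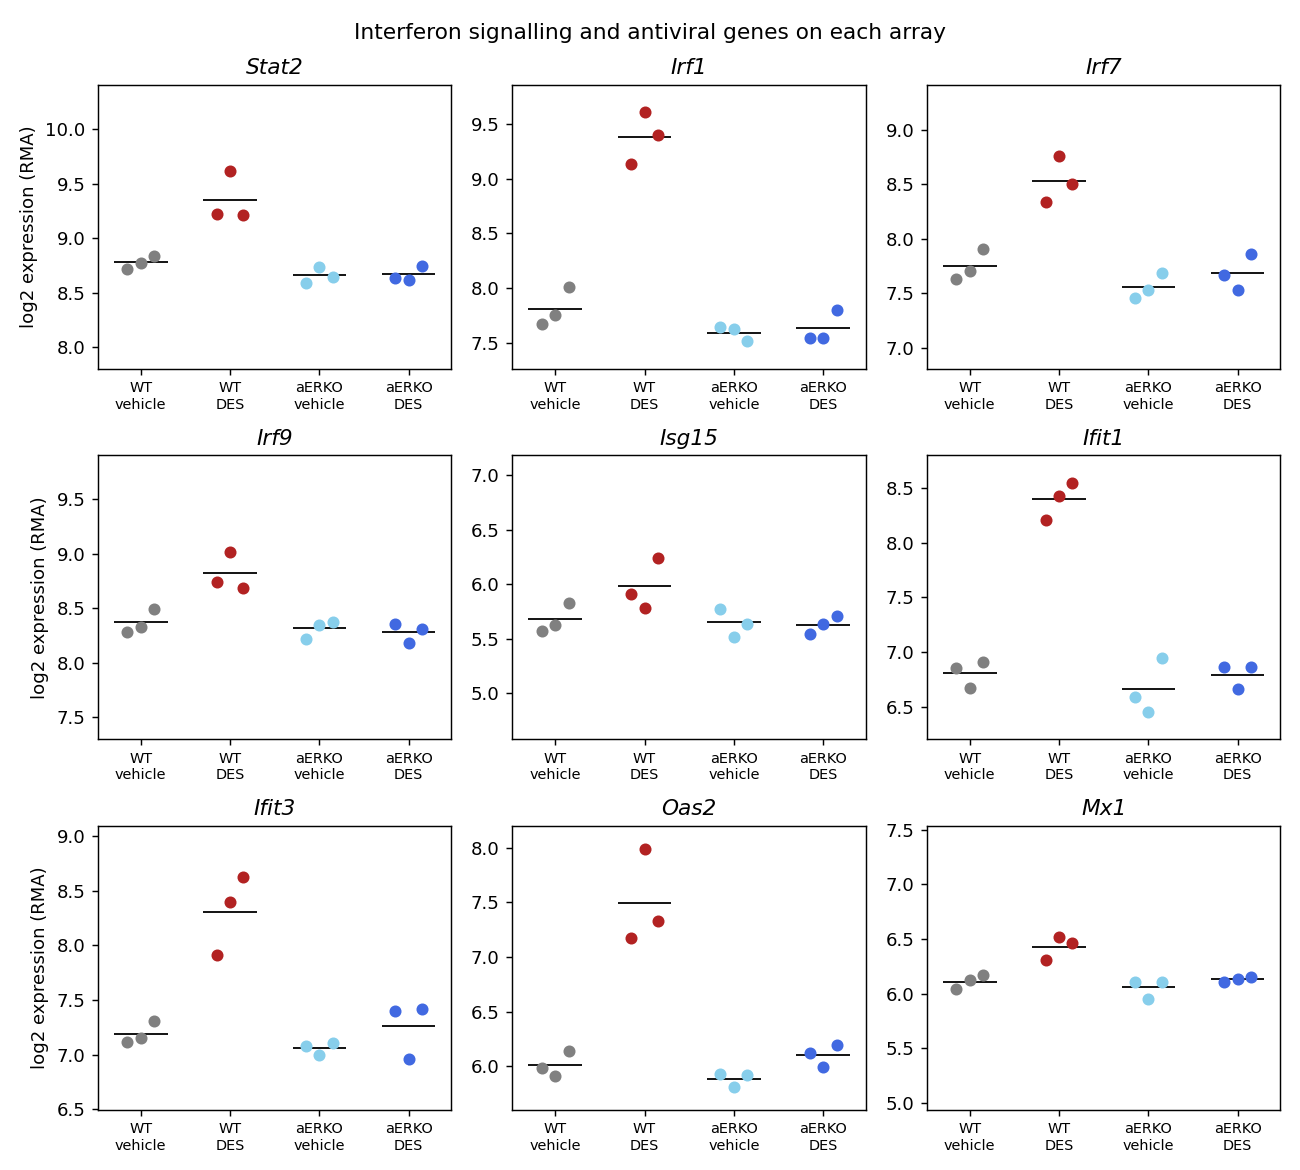
log2 expression (RMA) of the 9 interferon genes on each of the 12 arrays; points are arrays, bars are group means, and every panel spans the same number of log2 units. WT_DES arrays stand above the other 9 arrays for 8 genes, while for Isg15 the lowest WT_DES array (5.78) lies below the highest WT_vehicle array (5.83).

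Stat2, the transcription factor activated by type I interferon receptors, was at 8.72, 8.77 and 8.84 in WT_vehicle and at 9.22, 9.62 and 9.21 in WT_DES. In aERKO it was at 8.59, 8.74 and 8.65 with vehicle and at 8.64, 8.62 and 8.75 with DES. All WT_DES arrays were above all others, 1 of them clearly higher than its group, and the aERKO groups overlapped. Stat2 rose by 0.57 ± 0.10 (SE) in WT, or 1.49-fold (adjusted p = 0.000672, limma).

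Irf9, which gives the STAT complex its DNA contact, was at 8.28, 8.33 and 8.49 in WT_vehicle and at 8.74, 9.02 and 8.69 in WT_DES. With vehicle and DES the aERKO arrays gave 8.22, 8.35 and 8.37 and then 8.36, 8.18 and 8.31. The gap between the lowest WT_DES array and the highest of the other 9 was 0.20, smaller than the range within WT_DES of 0.33. The WT increase was 0.45 ± 0.09, or 1.36-fold (adjusted p = 0.00243, limma).

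Irf1, a factor that acts on antiviral and antigen presentation genes, was at 7.67, 7.75 and 8.01 in WT_vehicle and at 9.14, 9.61 and 9.40 in WT_DES. The aERKO arrays were at 7.64, 7.62 and 7.51 with vehicle and at 7.54, 7.54 and 7.80 with DES. The 3 WT_DES arrays stood 1.14 or more above every other array. Irf1 rose by 1.58 ± 0.12 in WT, or 2.98-fold (adjusted p = 6.62e-07, limma). This value rests on the brighter of 2 Irf1 probe sets. The dimmer one read 6.43 ± 0.159 in WT_vehicle and 6.35 ± 0.152 in WT_DES (n = 3 each), a difference of -0.08 ± 0.10 (adjusted p = 0.507, limma), and the mean of both sets gave 0.75.

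Irf7, which amplifies production of type I interferon, was at 7.63, 7.71 and 7.91 in WT_vehicle and at 8.34, 8.76 and 8.50 in WT_DES. The aERKO arrays were at 7.46, 7.53 and 7.69 with vehicle and at 7.67, 7.53 and 7.86 with DES. WT_DES stood apart from the other 3 groups, which overlapped one another. The WT increase was 0.79 ± 0.12, or 1.73-fold (adjusted p = 0.000234, limma).

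Among the effectors, Ifit1, which binds viral RNA lacking the host's cap modification, was at 6.85, 6.67 and 6.91 in WT_vehicle and at 8.21, 8.43 and 8.55 in WT_DES. In aERKO it was at 6.59, 6.45 and 6.94 with vehicle and at 6.86, 6.66 and 6.86 with DES. The lowest WT_DES array was 1.27 above the highest of the other 9, the widest gap among the 9 genes. Ifit1 rose by 1.59 ± 0.13 in WT, or 3.01-fold (adjusted p = 8.58e-07, limma).

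Ifit3, a partner of Ifit1, was at 7.12, 7.15 and 7.31 in WT_vehicle and at 7.91, 8.40 and 8.63 in WT_DES. The aERKO arrays gave 7.08, 7.00 and 7.11 with vehicle and 7.40, 6.96 and 7.42 with DES. WT_DES was again separate, although its arrays spread over 0.72. The WT increase was 1.12 ± 0.16, or 2.18-fold (adjusted p = 0.000152, limma). Ifit3b is a near-identical copy of Ifit3, so these probe sets may share signal; Ifit3b rose by 1.17 ± 0.15.

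Oas2, a synthetase whose product activates the RNA-degrading enzyme RNase L, was at 5.98, 5.91 and 6.14 in WT_vehicle and at 7.17, 7.99 and 7.33 in WT_DES. It was at 5.93, 5.81 and 5.92 in aERKO_vehicle and at 6.12, 5.99 and 6.19 in aERKO_DES. WT_DES was well apart from the rest. Oas2 exceeded the array median on 6 arrays, 3 of them outside WT_DES, and was 0.70 above the mean background control in WT_vehicle. Oas2 rose by 1.49 ± 0.16 in WT, or 2.8-fold (adjusted p = 1.49e-05, limma). It had the widest range among the WT_DES arrays, 0.82.

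Mx1 encodes a GTPase that blocks influenza and related viruses, and in C57BL/6 and most laboratory strains the gene carries a deletion that removes its function. It was at 6.04, 6.12 and 6.17 in WT_vehicle and at 6.31, 6.52 and 6.46 in WT_DES. The aERKO arrays were at 6.11, 5.95 and 6.11 with vehicle and at 6.11, 6.13 and 6.15 with DES. The WT_DES arrays were the 3 highest by a margin of 0.14, and the WT increase of 0.32 ± 0.07, or 1.25-fold, was the smallest of the 8 (adjusted p = 0.00352, limma).

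Isg15, a ubiquitin-like protein that is joined to other proteins during the interferon response, was at 5.57, 5.63 and 5.83 in WT_vehicle and at 5.91, 5.78 and 6.24 in WT_DES. In aERKO it was at 5.77, 5.52 and 5.64 with vehicle and at 5.54, 5.64 and 5.71 with DES. The WT groups overlapped. Isg15 was 0.37 above the mean background control in WT_vehicle and 1.11 above it in WT_DES. That control itself was lower in WT_DES, at 4.87 against 5.31 in WT_vehicle, while the Isg15 means were 5.98 and 5.68. When all 30063 genes were tested without the brightness filter, its WT difference was 0.30 ± 0.12 (adjusted p = 0.0656, limma), which did not pass the threshold.

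A fold of 2 or more was reached by 4 of the 8 tested genes, Irf1, Ifit1, Ifit3 and Oas2, against 4.59% of all genes called and at least 2-fold higher in WT. The other called genes, Stat2, Irf7, Irf9 and Mx1, were raised by 1.25-fold to 1.73-fold. With both Irf1 probe sets averaged, the Irf1 increase was 0.75, called but under 2-fold. The arrays of WT_DES did not keep 1 order across genes: replicate 2 was highest for Stat2, Irf1, Irf7, Irf9, Oas2 and Mx1, and replicate 3 for Ifit1, Ifit3 and Isg15. Replicate 1 was lowest for Irf1, Irf7, Ifit1, Ifit3, Oas2 and Mx1. The mean over the 8 tested genes relative to WT_vehicle was 0.78, 1.19 and 1.00 on the 3 WT_DES arrays, and it ran from -0.17 to 0.12 on the other 9.

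The second question was whether the response was the same without estrogen receptor alpha. In aERKO glands the DES differences of the 8 genes ran from -0.03 (Irf9) to 0.22 (Oas2), with a median of 0.10 against -0.01 over all genes, and each adjusted p was 0.999 (limma). None of the 8 passed an unadjusted p of 0.05 either, while over all genes 94 were higher and 170 lower at that level. The 95% intervals allowed a log2 increase of at most 0.23 for Stat2, 0.30 for Irf1, 0.39 for Irf7, 0.17 for Irf9, 0.41 for Ifit1, 0.55 for Ifit3, 0.57 for Oas2 and 0.23 for Mx1. Oas2 was the 1 gene of the 8 whose aERKO_DES arrays were all above the aERKO_vehicle arrays, a pattern seen in 1.56% of all genes. For Isg15 the aERKO difference without the filter was -0.02.

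The difference between these responses, WT minus aERKO, was tested directly. It was called for 7 of the 8 genes, each with the larger increase in WT, against 14.1% of all genes called higher. Irf1 had the largest difference, 1.54 ± 0.17 (SE; adjusted p = 4.31e-05), followed by Ifit1 with 1.46 ± 0.18 (adjusted p = 8.99e-05) and Oas2 with 1.27 ± 0.23 (adjusted p = 0.00174). These 3 were also past a 2-fold difference, against 4.52% of all genes. The Irf1 value again rests on the brighter probe set: with both sets averaged the difference was 0.77 (adjusted p = 0.00211, limma), called but under 2-fold and smaller than those of Ifit1, Oas2 and Ifit3. Ifit3 differed by 0.93 ± 0.23 (adjusted p = 0.0121), Irf7 by 0.66 ± 0.17 (adjusted p = 0.0152), Stat2 by 0.56 ± 0.14 (adjusted p = 0.0139) and Irf9 by 0.48 ± 0.13 (adjusted p = 0.0218), all in limma.

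The difference for Mx1 was 0.25 ± 0.10 (adjusted p = 0.0904, limma), with a 95% interval of 0.03 to 0.47, and was not called. It was called at 0.31 without WT_DES replicate 1 (adjusted p = 0.0432, limma), at 0.33 after quantile normalization and at 0.21 with array weights. The Irf9 call was lost without WT_vehicle replicate 1 (0.44), WT_vehicle replicate 2 (0.46), aERKO_vehicle replicate 2 (0.46) or aERKO_DES replicate 2 (0.43), with adjusted p-values of 0.0503 to 0.0573 (limma). It was also lost after quantile normalization (0.34), and the shift to a common 75th percentile ended the calls of Irf9 (0.35) and Irf7 (0.52).

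**Figure D3:**
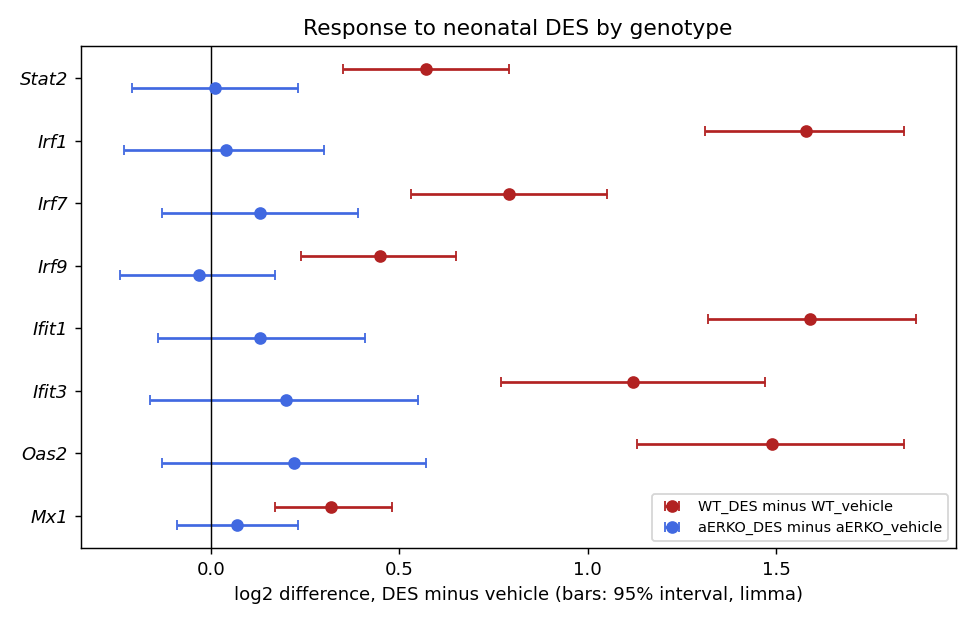
log2 difference between DES and vehicle for the 8 tested genes in WT (red) and aERKO (blue); points are limma estimates and bars are 95% intervals. The WT intervals lie above 0 for all 8 genes and the aERKO intervals all include 0, and the intervals of the 2 genotypes overlap for Mx1.

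Genotype was also compared at each treatment; these comparisons use the same arrays as those above and add no independent samples. Among vehicle glands none of the 8 genes was called, against 0.0249% of all genes. The 8 differences, aERKO minus WT, ran from -0.22 (Irf1) to -0.05 (Irf9 and Mx1), with an adjusted p of 1 for each (limma), and none passed an unadjusted p of 0.05. For Irf1 and Ifit3 the aERKO_vehicle arrays were all below the WT_vehicle arrays, as for 5.74% of all genes. Among DES glands all 8 genes were lower in aERKO, against 24.6% of all genes, by -0.30 (Mx1) to -1.76 (Irf1), and 4 of them, Irf1, Ifit1, Ifit3 and Oas2, by at least 2-fold, against 4.83% of all genes. With both probe sets averaged, the Irf1 value was -0.90 (adjusted p = 1.76e-05, limma), called but under 2-fold. The Mx1 call was lost with the shift to a common 75th percentile (-0.17, adjusted p = 0.109, limma). Isg15, tested without the filter, was lower in aERKO_DES than in WT_DES by -0.35 ± 0.12 (adjusted p = 0.0314, limma).

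The rest of the interferon system was read from 9 lists of ligands, receptors, factors, sensors, effectors and inhibitors, with 113 genes named on the array and 95 tested. In WT, 72 of the 95 were called higher, against 20.7% of all genes, and 3 lower, against 23.3%. The median of the 95 was 0.63. In aERKO none was called, like every gene tested, and 1, Cxcl10, passed an unadjusted p of 0.05. The difference between genotypes was called for 64 with the larger increase in WT and for 2, Stat5b and Mavs, on the other side, where 9.16% of all genes lay. That count of 2 fell to 0 in 9 of the 12 fits that left out 1 array, was 1 without WT_DES replicate 3 and stayed at 2 without WT_DES replicate 1 or aERKO_DES replicate 3. Among vehicle glands no gene of the 95 was called between genotypes.

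Among DES glands, again on the arrays used above, 72 of the 95 were lower in aERKO than in WT, with a median of -0.69. The 5 higher in aERKO, where 27.5% of all genes lay, were the ligand genes Ifna4 (0.42) and Ifna5 (0.37), the OAS family gene Oas1f (0.24), Stat5b (0.41) and Mavs (0.42). Shifting arrays to the hybridization controls left none of these 5 called, with values of 0.02 (Oas1f) to 0.20 (Ifna4 and Mavs), and shifting them to a common median gave 12 higher genes. The count of higher genes was 2 without WT_DES replicate 2 or aERKO_DES replicate 3 and 8 without WT_DES replicate 3.

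No interferon gene itself was called between DES and vehicle in WT. The list of ligands had 18 genes on the array, 8 of them tested, with a median of -0.11. Ifnb1 and Ifng, named here after their values were seen as the best known ligands of the 2 branches, were too dim to be tested. Ifng was at 5.02, 5.01 and 5.01 in WT_vehicle and at 5.29, 5.48 and 5.48 in WT_DES, and at 5.07, 5.49 and 5.22 in aERKO_DES. Its WT_DES arrays were above WT_vehicle and within the range of aERKO_DES, and the mean background control was at 5.31 in WT_vehicle and 4.87 in WT_DES. Ifnb1 was at 5.48 ± 0.0532 in WT_vehicle and 5.25 ± 0.134 in WT_DES (n = 3 each).

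Receptor chains and their kinases were called higher in WT for 7 of 9 genes, with a median of 0.76. Ifngr1, the ligand-binding chain for interferon gamma, rose by 1.13 ± 0.12, Ifnar2 by 0.91 ± 0.11 and Ifnar1 by 0.84 ± 0.11, and the kinase Jak2 rose by 0.79 ± 0.12. Ifnlr1, a chain of the interferon lambda receptor (-0.08 ± 0.06), and the kinase Tyk2 (0.10 ± 0.07) were not called. Of 10 further STAT and IRF factors, 7 were called higher, among them Stat4 by 1.68 ± 0.10, Irf4 by 1.20 ± 0.09 and Stat3 by 0.96 ± 0.10. Stat5a and Stat5b were lower, Stat5b by -0.46 ± 0.09.

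Sensors of foreign nucleic acid and their adaptors were higher for 9 of 11 genes. Ifi204, a DNA sensor, rose by 2.80 ± 0.19, Zbp1 by 1.98 ± 0.15, the adaptor Sting1 by 1.57 ± 0.17 and Ddx58, which encodes the RNA sensor RIG-I, by 1.11 ± 0.10. Mavs, the adaptor of RIG-I, was lower by -0.39 ± 0.07. The 3 lower calls, Stat5a, Stat5b and Mavs, became 0 when arrays were shifted to the hybridization controls and 6 when shifted to a common median.

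Antiviral effectors showed the same direction in most cases. Of 11 other OAS, IFIT and MX family genes, 7 were higher, among them Oasl2 by 1.70 ± 0.15, Oas1a by 0.93 ± 0.13 and Oas1g by 0.85 ± 0.14; the Oas1 genes are close copies whose probe sets may share signal. Of 5 genes that attach or remove ISG15, 4 were higher: Herc6 by 1.28 ± 0.12, Uba7 by 0.64 ± 0.08, Ube2l6 by 0.62 ± 0.08 and Trim25 by 0.47 ± 0.09. Usp18, which removes ISG15 and damps type I signalling, was at 8.62 ± 0.279 in WT_vehicle and 8.60 ± 0.184 in WT_DES (n = 3 each), a difference of -0.02 ± 0.13. Of 26 other antiviral genes, 25 were higher, among them Trim30a by 2.19 ± 0.13, Ifitm1 by 2.09 ± 0.16, Ifitm3 by 1.84 ± 0.11 and Samhd1 by 1.64 ± 0.13. Isg20, an exonuclease, was not called (0.07 ± 0.06).

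Genes induced by interferon gamma had the highest median of the lists, 1.52, and all 10 tested were higher in WT. Cxcl9, a chemokine that draws T cells, was at 6.78, 6.91 and 7.84 in WT_vehicle and at 10.90, 11.48 and 11.12 in WT_DES, an increase of 3.99 ± 0.30. In aERKO_DES it was at 7.00, 6.46 and 7.57, within the WT_vehicle range or below it. Cxcl9 differed by -0.55 ± 0.30 between aERKO_vehicle and WT_vehicle and by 0.39 ± 0.30 between aERKO_DES and aERKO_vehicle, neither called. The median DES difference of the 10 in aERKO was 0.12, against -0.01 over all genes. In WT the GTPases Gbp2 and Iigp1 rose by 3.31 ± 0.20 and 2.59 ± 0.23, and Ido1, an enzyme of tryptophan breakdown, by 2.27 ± 0.19. Of 8 genes that restrain interferon signalling, 5 were higher, Ptpn6 by 1.18 ± 0.12, Ptpn2 by 0.60 ± 0.12, Pias1 by 0.31 ± 0.09 and Irf2 by 0.31 ± 0.07 among them. The feedback inhibitors Socs1 (-0.10 ± 0.09) and Socs3 (0.21 ± 0.10) were not called.

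**Figure D4:**
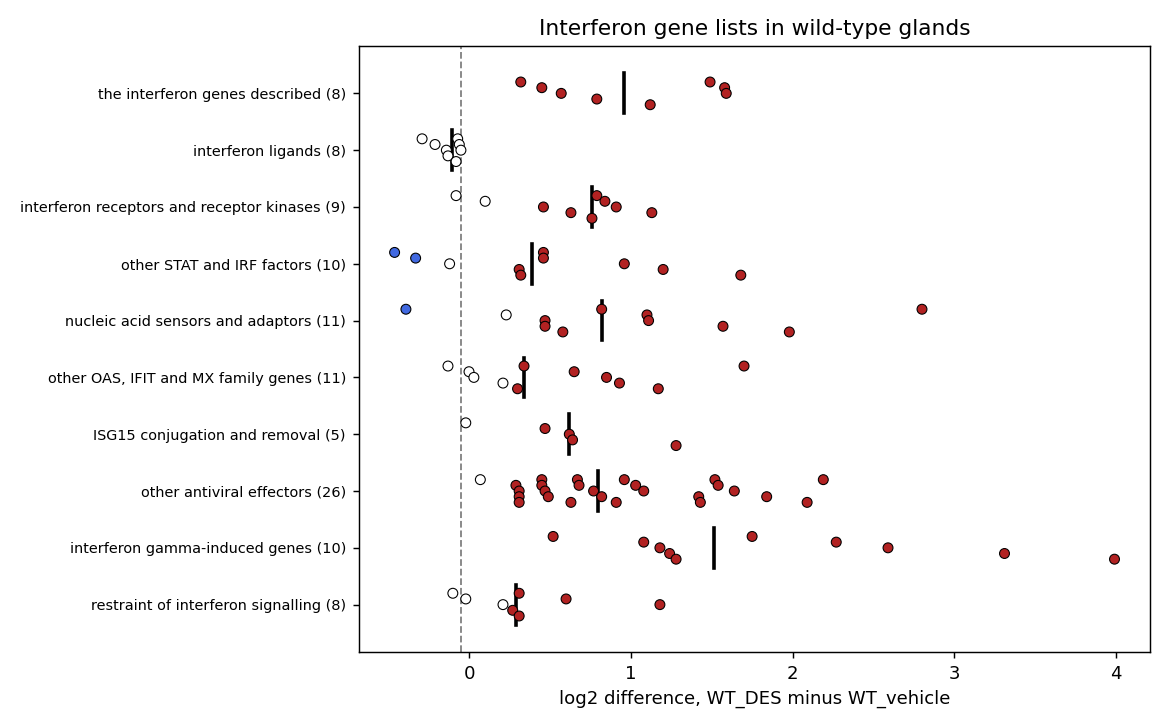
log2 difference between WT_DES and WT_vehicle for each tested gene of 10 interferon gene lists, with the number tested in brackets; red and blue points were called higher and lower (adjusted p of 0.05), white points were not called, black bars are list medians and the dashed line is the median of all genes (-0.05). The interferon gamma-induced genes have the highest median (1.52), and none of the 8 ligands was called.

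The glands were measured whole, where a change in the number of cells of a type and a change in RNA per cell cannot be told apart. Markers of immune cells moved with the interferon genes. In WT all 15 macrophage and dendritic cell markers were called higher (median 2.14; Lyz2 by 4.13 ± 0.19), as were 9 of 10 neutrophil markers (median 2.29; S100a8 by 6.72 ± 0.15) and 8 of 9 B and plasma cell markers (median 1.37; Jchain by 3.76 ± 0.16). T cell markers were higher for 7 of 8 (median 0.60, Cd3g by 1.41 ± 0.14) and NK cell markers for 4 of 7 (median 0.37, Klrd1 by 1.11 ± 0.12). The NK cell markers Prf1 (-0.13 ± 0.16), Eomes (-0.17 ± 0.11) and Nkg7 (0.22 ± 0.11) were not called. Of 8 markers of plasmacytoid dendritic cells, a main source of type I interferon, 6 were higher and Pacsin1 lower (median 0.49; Spib by 0.73 ± 0.11); Bst2 and Irf8 are on that list and among the interferon genes too. Over all genes tested, 20.7% were called higher in WT. None of these markers was called in aERKO, and neither was any other gene tested (0%).

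Relative to WT_vehicle, the macrophage and dendritic cell markers averaged 1.91, 2.35 and 2.00 on WT_DES replicates 1, 2 and 3, and the neutrophil markers 2.68, 3.17 and 2.57. The common leukocyte marker Ptprc was 2.92, 3.48 and 3.15 above, and the 8 interferon genes 0.78, 1.19 and 1.00. Replicate 2 was the highest for these 4 measures. The T cell markers averaged 0.56, 0.87 and 0.87 and the NK cell markers 0.21, 0.38 and 0.53. The B and plasma cell markers averaged 1.58, 1.70 and 1.80 and the plasmacytoid dendritic cell markers 0.24, 0.37 and 0.40, both highest on replicate 3. WT_DES replicate 2 also had the lowest means of the background controls (4.70) and hybridization controls (11.19) of the 12 arrays. The part of this in the order of the replicates was not tested. Among cells of the gland, 5 of 6 epithelial markers were higher in WT (median 0.53), against 20.7% of all genes. They did not move as 1: Krt5 rose by 1.62 ± 0.09, while Krt18 was lower by -0.30 ± 0.09. Called lower were 5 of 6 smooth muscle markers (median -0.43) and 6 of 10 secretory genes (median -0.25), against 23.3% of all genes. The part of any cell type in the interferon gene differences was not tested.

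**Figure D5:**
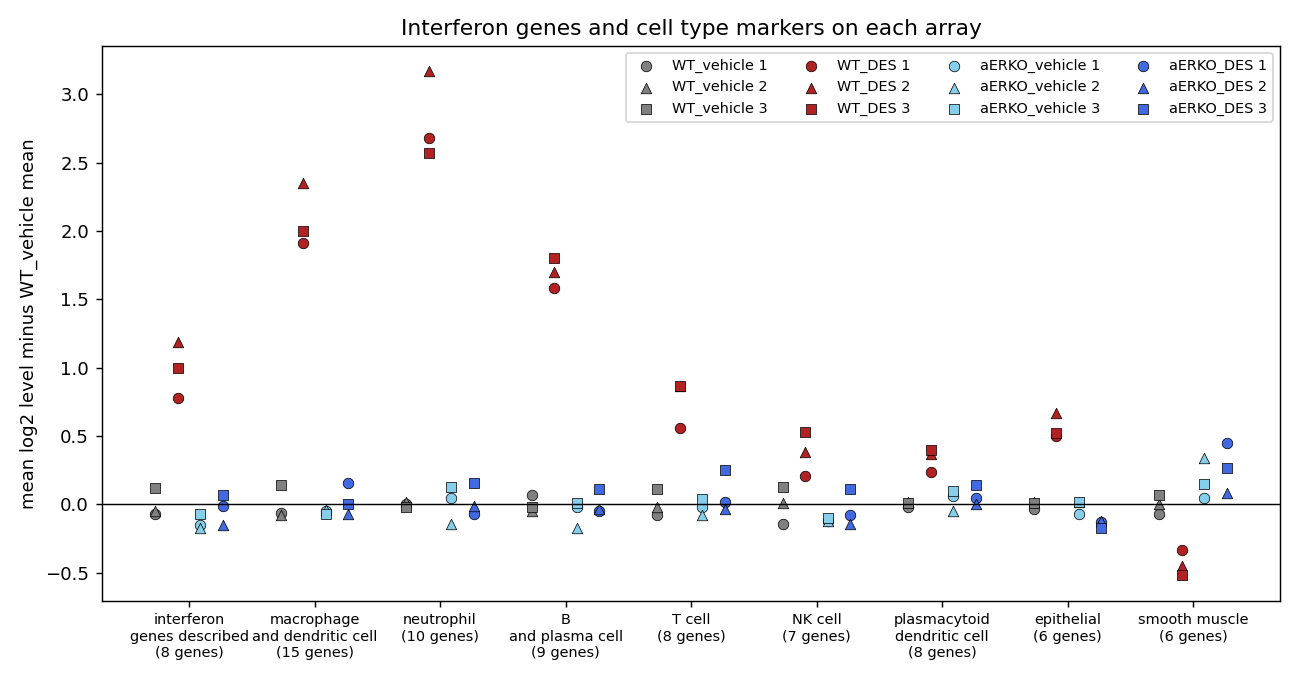
Mean log2 level of the 8 tested interferon genes and of cell type marker lists on each array, relative to the WT_vehicle mean; colours are groups and marker shapes are replicate numbers. WT_DES arrays are above the other 9 for the interferon genes (0.78, 1.19 and 1.00) and for the immune marker lists, and below them for smooth muscle.

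Genes with the most similar pattern were found by the mean absolute distance of their log2 levels over the 12 arrays, each gene being centred on its WT_vehicle mean, among the tested genes without provisional names (14889, or 14890 for Isg15). The nearest to Irf1 were the class I histocompatibility genes H2-K1 (distance 0.0635) and H2-Q4 (0.0653) and Gimap3 (0.0816), whose WT differences were 1.54, 1.61 and 1.59. Irf7 was closest to Gpr183 (0.0667), Urah (0.0723) and Mapkapk3 (0.0811). Ifit1 was nearest to Sla (0.0975), Fbln1 (0.108) and Klf5 (0.112), and the values of Isg15 to Igkv8-34 (0.0618), Tap2 (0.0657) and Sema4c (0.0701). These lists describe likeness over 12 arrays that share 4 groups.

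The ISRE letters shown above were then set beside the response. Over all genes with a promoter in the table, 151 of 456 tested genes with ISRE letters were called higher in WT (33.1%), and 2362 of 12238 without them (19.3%). Their median log2 differences in WT were 0.01 with the letters and -0.08 without. These counts include the interferon genes themselves. Within the wider interferon set the shares were 18 of 25 (72%) with the letters and 37 of 51 (72.5%) without, with median log2 differences of 0.82 and 0.47. Among the genes followed here, Stat2, Ifit1 and Ifit3 carry the letters and were called higher, as were Irf1, Irf7 and Irf9, which do not. These shares are descriptions of letters in a 300-base window.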

How the data were processed

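The submitters' processing notes name RMA and Affymetrix Expression Console as the tools with which the authors made the deposited log2 expression levels per probe set; RMA subtracts background, equalizes arrays and summarizes probes. Tool versions, settings and build: not given in the sources used here. Per the labels' protocols, 300 ng of total RNA were labelled per array. Groups and replicate numbers come from the sample titles. The labels do not say that samples were separate animals, so a p-value here measures only the spread between samples, which may be technical.

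Of 72688 probe sets, 30604 had 1 gene symbol, 2146 several and 39938 none. Only the first were named, 1135 symbols being updated through the RefSeq table of GRCm38.p6, and a gene was read from its set with the highest mean. Genes above the array median on at least 3 of 12 arrays were tested with limma 3.58.1 (lmFit and eBayes, R 4.3.3), two-sided, in 1 fit of 4 group means with 8 residual degrees of freedom. The Benjamini-Hochberg adjustment ran over the 20102 genes tested in each comparison, at a threshold of 0.05. The fit was tested on simulated data. SDs are over arrays and SEs come from limma. With 3 arrays against 3, the smallest p of an exact permutation test is 0.1, so none was run.

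The genes and lists were chosen with earlier results of these data known. Named genes are the 9 genes, up to 4 of each wider list and 3 of each marker list with the largest called WT differences, Esr1, and the 3 nearest in pattern to Irf7, Isg15, Ifit1 and Irf1. Ifng, Ifnb1, Ifna4, Ifna5, Ifnlr1, Tyk2, Stat5a, Stat5b, Irf8, Mavs, Oas1f, Usp18, Isg20, Socs1, Socs3, Cxcl10, Pacsin1, Krt18, Prf1, Eomes and Nkg7 fall outside this rule. They were chosen once their values had been seen. The lists overlap in a few genes, such as Trim25 and Irf2. Alternatives varied the filter, probe sets, moderation, weights, scaling, block, fold and arrays.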

Additional observations from a re-analysis of the deposited data

Results flagged for a closer look

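The response to DES differed between WT and aERKO glands, by the test of that difference (limma, 3 arrays per group), for 7 of the 8 tested interferon genes. The log2 response in WT exceeded that in aERKO by 0.56 for Stat2, 1.54 for Irf1, 0.66 for Irf7, 0.48 for Irf9, 1.46 for Ifit1, 0.93 for Ifit3 and 1.27 for Oas2. For each of the 7 all 3 WT_DES arrays lay above all 9 other arrays, as they did for 20.7% of all genes tested. With both Irf1 probe sets averaged, the Irf1 difference was 0.77.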

How the results depend on the processing

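In WT, the 8 calls and their direction held with no filter, other probe set rules, a trend, robust moderation, array weights, 4 scalings, only the 2 groups compared and each array left out (8 to 8). A stricter filter left Oas2 and Mx1 untested and 6 calls in WT, 6 in the difference between genotypes and 6 between genotypes given DES. Mx1 came closest to the threshold, with adjusted p-values of 0.00041 to 0.0454 (limma). Requiring a fold of 2 left 4 of the 8 genes in WT, 3 in that difference and 4 between genotypes given DES, and 31 wider genes higher in WT and 28 in the difference. Irf1 was among the 4, 3 and 4 genes on its brighter probe set. With both its sets averaged it was under 2-fold in each (0.75, 0.77 and -0.90). The 3 wider genes lower in WT became 5 with array weights, 6 with a common median, 0 with the hybridization controls and 0 with a fold of 2, and 3 to 5 with 1 array left out. The 2 lower in the difference became 1 with no filter, 0 with the hybridization controls and 0 with a fold of 2, and 0 to 2 with 1 array left out. Of the wider genes lower in aERKO given DES, 38 were 2-fold lower; the 5 higher became 8 with no filter, 2 with a stricter filter, 2 with only the 2 groups compared, 8 with array weights, 12 with a common median, 11 with a common 75th percentile, 0 with the hybridization controls and 0 with a fold of 2, and 2 to 8 with 1 array left out. The causes were not tested. The count of 7 in the difference was 6 to 8 with 1 array left out and 5 with a common 75th percentile. Deviations of arrays numbered 1, 2 and 3 correlated at -0.0034, -0.0429 and 0.075 between the WT groups, -0.355, 0.188 and 0.52 between the aERKO groups, 0.0863, 0.0737 and -0.00357 between vehicle groups and 0.0998, 0.18 and 0.456 between DES groups. The labels do not say that the numbers pair samples, so they were not taken to pair the arrays. No comparison had all 3 over 0.1, although the DES groups came close, with 0.0998 as their lowest. With the number as a replicate block, 8 genes in WT, 7 in the difference, and 73 and 66 wider genes were called higher. With 3 arrays a group, precision is limited, and the levels of Isg15, Oas2 and Mx1 near background limit what could be seen of them.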
